A study of Arabidopsis thaliana with 18 samples.

Results

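The genes described here are 43 loci of the plant cell cycle and of DNA replication, out of 28642 loci in the deposited tables. They were taken from the tables by locus identifier, by their role in the cycle. They are 11 mitotic cyclins of the A1, A2 and B families, 2 A3 cyclins, 3 D3 cyclins, 4 B-type cyclin-dependent kinases, the 6 subunits of the MCM helicase, 3 origin licensing genes, 2 E2F factors, 4 genes of the replication clamp and nucleotide supply, 5 mitotic kinases and activators of the anaphase-promoting complex (APC), and 3 cytokinesis genes. A filter on low counts kept 42 of them among 16499 genes tested. The gene that did not pass, ORC1A (AT4G14700), had 39 unique reads over all 16 libraries.

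RNA was sequenced from whole leaves of the first pair in Arabidopsis thaliana, Col-0. P10 (35S::PID10) and P21 (35S::PID21) are transgenic lines in Col-0 that overexpress PINOID (PID), a protein kinase that directs auxin efflux carriers, from the cauliflower mosaic virus 35S promoter, which is active in most plant tissues and not only in dividing cells. WT is untransformed Col-0, and all plants grew on the same sugar-containing medium without any treatment. Leaves were sampled at 16 days after stratification (DAS), which the labels call expansion, and at 9 DAS, which they call proliferation. Each group had 3 libraries, except P21 with 2 at each day, replicates 2 and 3. Values of single libraries are given in the order of the replicate numbers.

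Libraries held 1193042 to 4695692 unique gene reads, with a median of 2631344. PID, the gene that the lines overexpress, had 749 to 882 CPM (reads of the gene over all gene reads of the library, scaled to a common library size with TMM factors) in P10 at 16 DAS, 368 and 631 CPM in P21, and 3.19 to 4.22 CPM in WT. At 9 DAS it had 446 to 522 CPM in P10, 940 and 961 CPM in P21, and 4.73 to 5.92 CPM in WT. Every library thus matched its label as WT or as a PID overexpression line. The PID level does not check the day, or which of the lines a library came from. The labels name the same second library index for the WT and P10 libraries of 9 DAS and another for all other libraries, so a comparison of P21 with WT at 9 DAS, and of the days in P10 and WT, cannot be told apart from the index. The deposited column headers name another lane for replicate 2 of P21 at 9 DAS than for every other library, and the part of the lane was not tested. In replicate 2 of WT and P10 at 9 DAS the 5 clock genes stood apart, and counts are therefore also given without these libraries. Of the markers of other tissue, WUS had no read, and 4 shoot apical meristem genes together (STM, WUS, CLV3 and KNAT1) had 0 or 1 read a library at 16 DAS and 2 to 23 reads at 9 DAS.

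A cell passes through the cycle under cyclins that switch cyclin-dependent kinases on in turn. D-type cyclins open the way to S phase by releasing E2F factors from the retinoblastoma protein. E2F factors then raise the genes that license origins (CDC6, CDT1, ORC), unwind DNA (MCM2 to MCM7), clamp the polymerase (PCNA) and supply nucleotides (ribonucleotide reductase). B-type kinases with A- and B-type cyclins carry the cell into mitosis, when MYB3R factors act through the MSA element of mitotic promoters, and the APC then ends it. In a young leaf cells first divide, then leave the mitotic cycle, and many go on to endoreduplication, in which DNA is replicated without mitosis. Replication genes can therefore be in use in cells that no longer express mitotic cyclins.

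The promoters of the members carry the letters of both classes of factor. The 250 bases before each RefSeq gene start (assembly TAIR10.1) were searched on both strands for 4 forms of the E2F site (TTTCCCGC, TTTCGCGC, TTTGCCGC and TTTGGCGC) and for the core of the MSA element (AACGG), none of which overlapped another in the members. An E2F form stood in 6 of 15 windows of the replication roles (MCM helicase, origin licensing, E2F factors, clamp and nucleotide supply; 40.0%) and in 0 of 23 windows of the mitotic roles (mitotic cyclins, B-type kinases, mitotic kinases and APC activators, cytokinesis). Over 26709 protein-coding loci of the tables the share was 1.41%. The MSA core stood in 2 of 15 replication windows (13.3%) and in 13 of 23 mitotic windows (56.5%), beside 20.6% of all windows. The windows below are a selection in which each holds a match of its class, from genes named in the comparisons that follow. Not shown are E2FA, CDC6A, CDT1A, PCNA1 and PCNA2, which were called in comparisons of the lines and held no E2F form. Of these, E2FA held 1 MSA core. MCM3 and MCM7 of the MCM set are not shown either. Capitals mark the E2F forms in the MCM genes and the MSA core in the mitotic genes, and each run ends 1 base before the gene start.
MCM2 (AT1G44900, chr1:16970114-16970213, plus strand): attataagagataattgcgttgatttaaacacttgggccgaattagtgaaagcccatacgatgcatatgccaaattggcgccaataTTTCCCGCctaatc
MCM4 (AT2G16440, chr2:7130730-7130829, minus strand): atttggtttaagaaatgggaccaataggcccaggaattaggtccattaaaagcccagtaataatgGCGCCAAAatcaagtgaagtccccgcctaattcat
MCM5 (AT2G07690, chr2:3527501-3527600, minus strand): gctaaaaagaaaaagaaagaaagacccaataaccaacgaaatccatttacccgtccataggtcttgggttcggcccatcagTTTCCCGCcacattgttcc
MCM6 (AT5G44635, chr5:18010668-18010767, minus strand): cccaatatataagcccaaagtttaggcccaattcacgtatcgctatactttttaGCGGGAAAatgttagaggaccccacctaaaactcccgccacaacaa
CYCB1;2 (AT5G06150, chr5:1861704-1861853, minus strand): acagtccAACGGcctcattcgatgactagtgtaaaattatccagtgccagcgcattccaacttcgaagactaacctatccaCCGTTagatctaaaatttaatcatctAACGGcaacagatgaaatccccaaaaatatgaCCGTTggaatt
CYCB2;2 (AT4G35620, chr4:16901416-16901595, plus strand): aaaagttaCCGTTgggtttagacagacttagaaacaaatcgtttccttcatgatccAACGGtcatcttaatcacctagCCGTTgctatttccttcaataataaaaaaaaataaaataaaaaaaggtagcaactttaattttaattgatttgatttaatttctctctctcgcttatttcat
KNOLLE (AT1G08560, chr1:2711001-2711100, minus strand): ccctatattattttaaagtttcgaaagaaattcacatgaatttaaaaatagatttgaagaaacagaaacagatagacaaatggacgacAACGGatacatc
PLE (AT5G51600, chr5:20964538-20964667, minus strand): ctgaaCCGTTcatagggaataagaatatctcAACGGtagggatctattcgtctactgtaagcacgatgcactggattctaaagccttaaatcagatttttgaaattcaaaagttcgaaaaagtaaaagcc

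Within the MCM set 5 of 6 windows held an E2F form, MCM7 (AT4G02060) being without one, and all 3 cytokinesis windows held the MSA core. CYCB1;2 had 4 copies of the core and CYCB1;1, CYCB1;3, CYCB2;1, CYCB2;2 and CYCB2;3 had 3 each. PCNA1 and PCNA2, which lead several comparisons below, had neither set of letters in this window, which says only that these letters are not there. A match describes the sequence and was not tested as a binding site. The windows follow the RefSeq gene starts, which can differ from the deposited ones, and windows before the deposited starts were not searched.

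**Figure D1:**
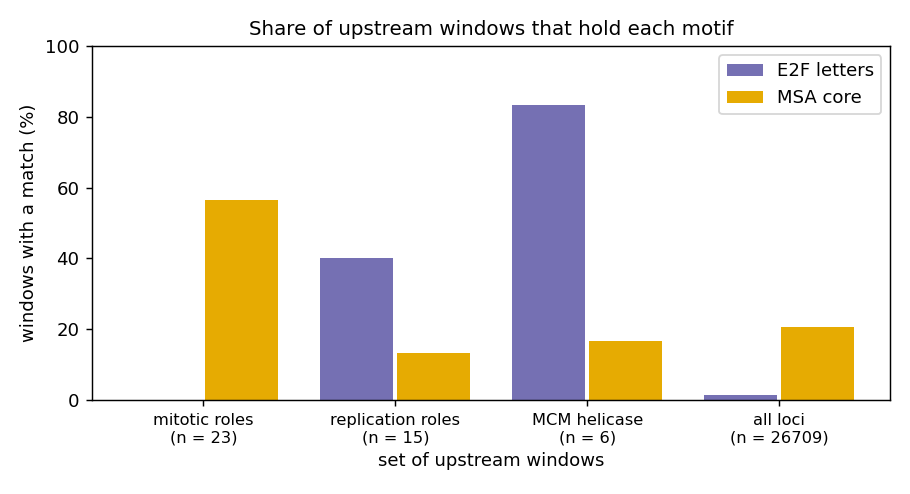
Share of the 250-base upstream windows (%, y axis) that hold an E2F form or the MSA core, for the mitotic roles (n = 23), the replication roles (n = 15), the MCM helicase genes among them (n = 6) and all protein-coding loci (n = 26709). E2F forms stood in 40.0% of the replication windows and in no mitotic window, while the MSA core stood in 56.5% of the mitotic windows.

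Levels can be set against each other only per length. In WT at 9 DAS CYCD3;2 (AT5G67260) was the highest member, at 105.9 ± 8.22 RPKM over the gene region (deposited reads scaled to gene length and library size; SD, n = 3), ahead of KNOLLE at 87.9 ± 17.7 and TSO2 at 79.1 ± 21.7 RPKM. KNOLLE and TSO2 lie within 1 SD of each other. The lowest were E2FA at 2.35, CDC6A at 1.84 and ORC1A at 0.711 RPKM.

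The comparison of the days asks how the members differ between expanding and proliferating leaves. At 16 DAS 41 of 42 members were called lower than at 9 DAS in P10, 25 of 42 in P21 and 37 of 42 in WT, and none was called higher in any genotype. A call means an adjusted p under 0.05 in edgeR's quasi-likelihood test, with Benjamini and Hochberg's adjustment over all genes, and a log2 fold change beyond 0.75. Over all genes tested, 14.4% were called lower in P10, 11% in P21 and 17.3% in WT. The median log2 fold change of the members was -2.87 in P10, -2.25 in P21 and -2.84 in WT, beside medians of -0.03, -0.02 and -0.04 over all genes. The leaves were sampled whole, so fewer dividing cells and less RNA per dividing cell cannot be told apart, here and in all that follows.

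The genes of mitosis fell in every genotype. All 23 of them, from mitotic cyclins to cytokinesis, were called lower at 16 DAS in P10, in P21 and in WT, with median log2 fold changes of -3.55, -2.88 and -3.71. KNOLLE (AT1G08560), a syntaxin that fuses vesicles at the forming cell plate, had 10.7, 8.05 and 6.34 CPM in P10 at 16 DAS, against 73.7, 92.3 and 106.5 CPM at 9 DAS. In P21 it had 7.90 and 7.99 CPM at 16 DAS, against 64.8 and 63.2 CPM at 9 DAS, and in WT 6.38, 10.9 and 7.45 CPM, against 128, 113.5 and 85.5 CPM. The 16 DAS libraries of all genotypes lay in one narrow range far below any library of 9 DAS. The log2 fold change was -3.49 ± 0.24 in P10 (SE; adjusted p = 1.03e-09), -3.0 ± 0.28 in P21 (adjusted p = 2.66e-07) and -3.67 ± 0.23 in WT (adjusted p = 1.65e-10).

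Among the B cyclins, which switch on the kinases of mitosis, CYCB1;2 (AT5G06150) had 4.10, 1.53 and 2.77 CPM in P10 at 16 DAS, against 33.2, 50.3 and 38.2 CPM at 9 DAS. It had 2.63 and 2.46 CPM in P21 at 16 DAS, against 33.4 and 24.8 CPM at 9 DAS, and in WT 1.59, 1.99 and 1.49 CPM, against 51.0, 58.7 and 36.5 CPM. No library of 16 DAS came near one of 9 DAS, and the log2 fold changes were -3.97 ± 0.32, -3.49 ± 0.37 and -4.75 ± 0.32 in P10, P21 and WT (adjusted p = 8.5e-09, 1.3e-06 and 4.3e-10 by edgeR). The other mitotic cyclins fell by between 2.44 (CYCB2;3, AT1G20610) and 5.06 (CYCB2;1, AT2G17620) on the log2 scale in P10, by between 2.05 (CYCB2;3) and 3.55 (CYCB2;2, AT4G35620) in P21, and by between 2.94 (CYCA2;4, AT1G80370) and 4.11 (CYCB1;1, AT4G37490) in WT. Levels at 16 DAS were near the limit of counting: CYCB2;1 had 0, 1 and 0 reads in P10, 2 and 1 reads in P21, and 1, 1 and 2 reads in WT, so its fold change rests on few reads.

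The B-type kinases CDKB1;1 (AT3G54180), CDKB1;2 (AT2G38620), CDKB2;1 (AT1G76540) and CDKB2;2 (AT1G20930), a plant-specific class that peaks from S phase to mitosis, were called in all 3 genotypes. Their log2 fold changes lay between -4.61 and -2.15 in P10, between -2.72 and -2.25 in P21, and between -4.18 and -2.66 in WT. The Aurora kinases, which phosphorylate histone H3 and act at the spindle and cell plate, gave -3.96, -3.50 and -2.65 in P10 for AUR1 (AT4G32830), AUR2 (AT2G25880) and AUR3 (AT2G45490). The same genes gave -2.50, -3.48 and -3.01 in P21 and -3.80, -3.71 and -2.32 in WT. CDC20.1 (AT4G33270) and CDC20.2 (AT4G33260) encode APC activators and lie next to each other with near-identical sequence. Only 57.2% and 57.0% of their reads were unique, so the split between them is uncertain. CDC20.1 had 3.28, 4.60 and 3.17 CPM in P10 at 16 DAS, against 48.1, 87.5 and 83.3 CPM at 9 DAS, and its log2 fold changes were -4.25 in P10, -3.70 in P21 and -4.54 in WT.

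HINKEL (AT1G18370), a kinesin that turns over phragmoplast microtubules, and PLE (AT5G51600), the microtubule bundler PLEIADE/MAP65-3, moved with KNOLLE. HINKEL fell by 3.70 in P10, 3.37 in P21 and 3.68 in WT on the log2 scale, and PLE by 3.93, 3.71 and 4.42.

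Of the 14 replication genes tested, 13 were called lower at 16 DAS in P10, with a median of -2.20, 0 in P21, with a median of -0.03 and a range of -0.91 to 0.71, and 10 in WT, with a median of -1.61. The test of the difference between P21 and WT, described below, called 3 of these 14 genes, and its medians were 1.21 in the replication roles and 0.93 in the mitotic roles. The days carry one library index in P21 and different ones in P10 and WT, and the part of the index in these counts was not tested. In P21 0 of 14 reached an unadjusted p under 0.05 with edgeR, and DESeq2's Wald test called 0. Limma on log2(RPKM + 1) called 1, MCM7. PCNA2 (AT2G29570), a subunit of the sliding clamp that holds the polymerase on DNA, had 5.75, 6.90 and 9.11 CPM in P10 at 16 DAS, against 33.2, 28.6 and 34.5 CPM at 9 DAS. It had 17.6 and 15.7 CPM in P21 at 16 DAS, against 13.4 and 15.2 CPM at 9 DAS. In WT it had 11.5, 11.4 and 11.2 CPM, against 51.5, 29.1 and 42.6 CPM. The P10 and WT libraries of the 2 days were far apart, while those of P21 lay within a few CPM of each other. The log2 fold change was -2.09 ± 0.24 in P10 (adjusted p = 9.3e-07), 0.20 ± 0.27 in P21 (adjusted p = 0.61) and -1.85 ± 0.22 in WT (adjusted p = 9.5e-07).

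PCNA1 (AT1G07370), the other clamp gene, had 1.64, 3.07 and 4.75 CPM in P10 at 16 DAS, against 19.5, 19.8 and 26.3 CPM at 9 DAS. It had 7.46 and 11.1 CPM in P21 at 16 DAS, against 10.7 and 8.57 CPM at 9 DAS, and in WT 4.78, 6.70 and 3.73 CPM, against 22.7, 25.7 and 24.0 CPM. Its log2 fold changes were -2.64 ± 0.32 in P10, -0.03 ± 0.34 in P21 and -2.15 ± 0.28 in WT. RNR1 (AT2G21790), the large subunit of ribonucleotide reductase, fell by 1.27 in P10 and by 0.97 in WT and was at 0.04 in P21. TSO2 (AT3G27060), a small subunit of the same enzyme, had log2 fold changes of 0.09 in P10, -0.05 in P21 and 0.20 in WT, and none passed the test.

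All 6 MCM genes, which form the helicase that opens the double strand, were called in P10 (log2 fold changes between -2.6 for MCM6, AT5G44635, and -1.26 for MCM3, AT5G46280). In WT 5 of 6 were called (-2.08 for MCM4, AT2G16440, to -1.46 for MCM6), and MCM3 was at -0.74, inside the fold threshold. In P21 none was called, and the values ran between -0.70 for MCM5 (AT2G07690) and 0.31 for MCM3. MCM4 had 3.28, 5.75 and 5.55 CPM in P10 at 16 DAS, against 20.5, 26.8 and 25.1 CPM at 9 DAS, and 8.34 and 11.99 CPM in P21, against 14.5 and 11.1 CPM. In WT it had 6.06, 6.45 and 3.73 CPM at 16 DAS, against 22.7, 22.7 and 27.5 CPM at 9 DAS. The P21 libraries of the days overlapped, and those of the other genotypes did not.

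Of the 4 members called in P10 and not in WT, which also held MCM3 and CYCA3;1 (AT5G43080), 2 act before the helicase opens. E2FA (AT2G36010), an activating E2F, and CDC6A (AT2G29680), a loader of the helicase at origins, were called in P10, at -2.19 ± 0.43 and -2.88 ± 0.83, and not in WT, at -0.64 ± 0.33 and -0.58 ± 0.59. CDT1A (AT2G31270), the partner of CDC6 in loading, was called in P10 at -2.64 and in WT at -1.67. DEL1 (AT3G48160), an atypical E2F that represses entry into endoreduplication, was called in P10 at -2.85 and in WT at -1.86. The test of the difference between the genotypes, given below, called none of these genes in P10.

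The D3 and A3 cyclins act at entry into the cycle and around S phase. CYCD3;1 (AT4G34160), which links cytokinin to division, was called in every genotype, at -2.68 in P10, -2.98 in P21 and -3.32 in WT. CYCD3;3 (AT3G50070) was called too, at -1.78, -1.50 and -1.79. CYCD3;2 was called in P10 at -1.53 and in WT at -1.47, and was at -0.68 in P21, inside the fold threshold (adjusted p = 0.040). Of the A3 cyclins, which act around S phase, CYCA3;2 (AT1G47210) was called in P10 and WT at -1.24 and -1.07, and CYCA3;1 in P10 at -3.24, beside -1.11 in WT without a call. Neither was called in P21.

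**Figure D2:**
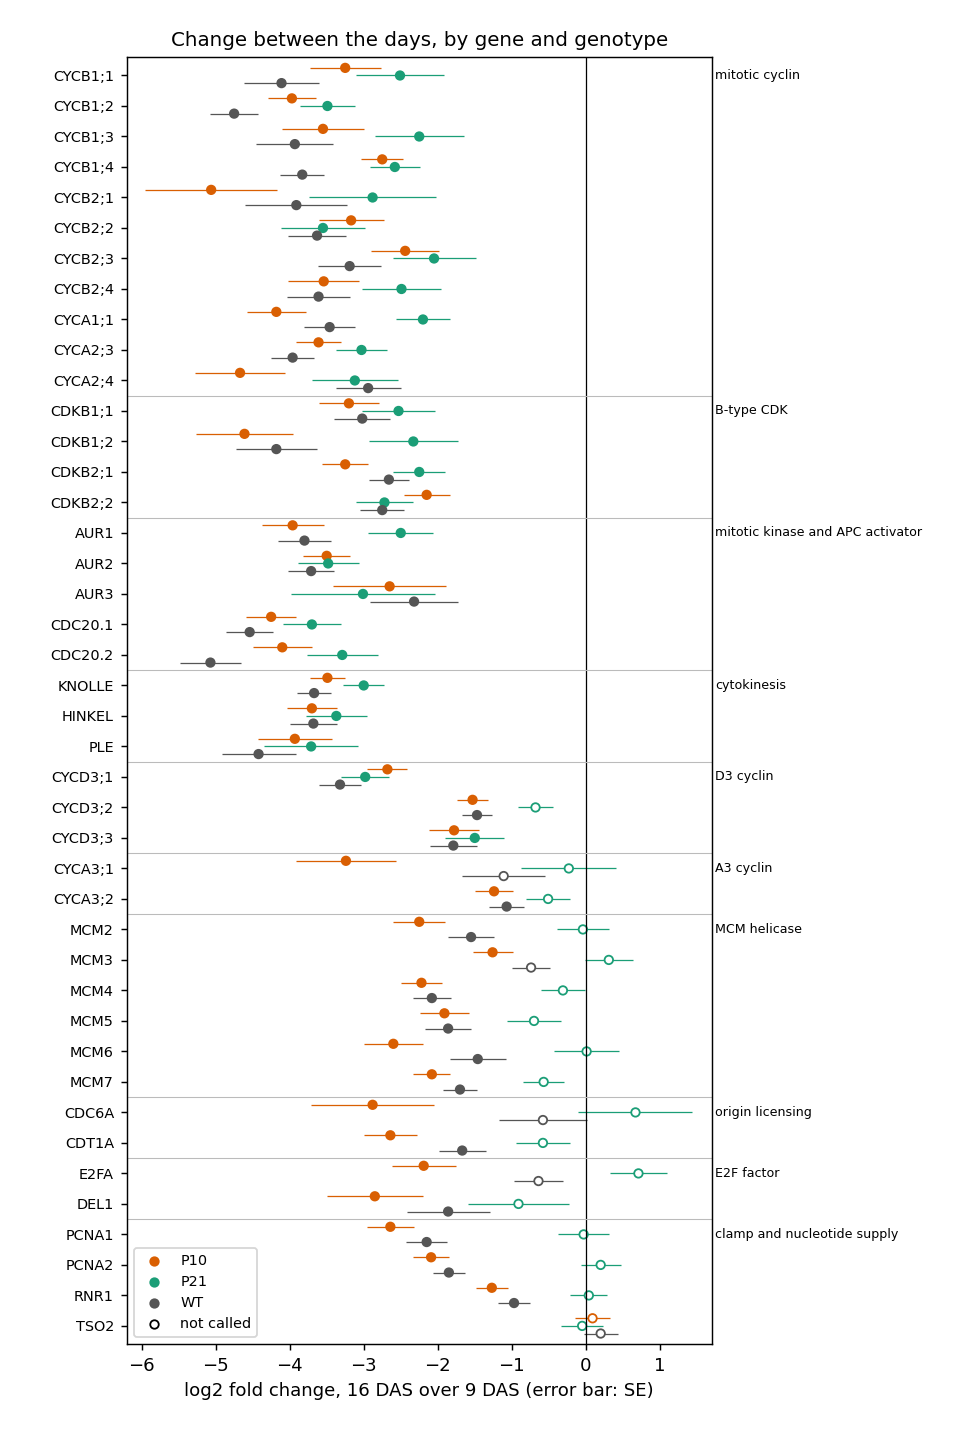
Log2 fold change of 16 DAS over 9 DAS (x axis, error bars SE) for the 42 tested members by role (rows), with P10, P21 and WT as separate points and open symbols for values that were not called. The mitotic genes lie between -5.07 and -2.05 in all 3 genotypes, while the replication genes of P21 lie between -0.91 and 0.71.

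Other genes of the cycle were counted in the same way. Of 18 other mitosis and cytokinesis genes tested, 16 were called lower at 16 DAS in P10, 14 in P21 and 16 in WT. Among them were BUBR1, a spindle checkpoint protein (-4.12 in P10, -3.46 in P21 and -3.93 in WT), and TPX2, which builds spindle microtubules (-3.88 in P10, -2.99 in P21 and -3.60 in WT). Of 23 other replication factors, 12 were called lower in P10, 1 in P21 and 12 in WT, and 0, 1 and 1 were called higher. RNR2A, another small subunit of ribonucleotide reductase, was the gene called higher in P21 and WT, at 1.41 and 1.39. CDT1B was called in P10 at -3.34 and in WT at -2.95. The test of the difference between P21 and WT, described below, called 0 of 23 other replication factors (median 0.80) and 1 of 18 other mitosis genes (median 0.63). Of 15 inhibitors and endocycle genes, 2, 1 and 3 were called higher and 5, 2 and 4 lower in P10, P21 and WT, where 16.6%, 12.7% and 18.6% of all genes were called higher. Among the higher ones was SMR1, a SIAMESE-related inhibitor of cyclin-dependent kinases, at 1.29 in P10, 1.20 in P21 and 2.38 in WT.

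A late dividing population of the leaf moved with the days as well. The summed level of 6 stomatal lineage genes was 15.8 to 31.2 CPM in P10, 30.3 to 43 CPM in P21 and 24.2 to 27.5 CPM in WT at 16 DAS, against 115 to 127, 103 to 110 and 108 to 129 CPM at 9 DAS, and 5 of 6 were called lower in each genotype. The part of these cells in the fall of the members was not tested.

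Each line was compared with WT at 9 DAS, in proliferating leaves. For P21 a difference from WT at this day cannot be told apart from the library index. In P10 0 of 42 members were called, beside 0.339% of all genes called in either direction. At an unadjusted p under 0.05 3 members were lower in P10 and 0 higher, where 5.63% and 6.60% of all genes were, and each of the 26 alternative settings also called 0. Of 42 members 36 had a negative log2 fold change, where 48.8% of all genes did. The median was -0.19, beside 0.01 over all genes, so a smaller lean to lower values was present in P10 too. The log2 fold changes ran between -0.77 for CYCB2;2 and 0.65 for MCM6. AN3, a coactivator that keeps leaf cells dividing, had 12.2, 12.8 and 10.02 CPM in P10, against 28.8, 22.7 and 30.1 CPM in WT, with no overlap (log2 fold change -1.20, adjusted p = 0.056). It belongs to a list of 7 leaf lamina markers, of which 4 had negative and 3 positive values in P10, with a median of -0.07.

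In P21 at 9 DAS most members had lower values than in WT, and few passed the test. Of 42 members 41 had a negative log2 fold change, with a median of -0.76 beside 0.02 over all genes, and 7 were called lower, or 16.7%, where 2.78% of all genes were called lower. None was called higher. In 34 of 42 members every P21 library lay below every WT library, which held for 18.8% of all genes tested. Among the mitotic roles 3 of 23 were called and among the replication roles 4 of 14, with medians of -0.77 and -0.78.

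The clamp genes led. PCNA2 had 13.4 and 15.2 CPM in P21, against 51.5, 29.1 and 42.6 CPM in WT at 9 DAS, and PCNA1 had 10.7 and 8.57 CPM, against 22.7, 25.7 and 24.0 CPM. The groups did not overlap in either gene. The log2 fold change was -1.52 ± 0.24 for PCNA2 (adjusted p = 0.0010) and -1.32 ± 0.29 for PCNA1 (adjusted p = 0.0092). RNR1 had 42.4 and 35.2 CPM in P21, against 63.3, 62.2 and 71.9 CPM in WT (-0.76 ± 0.23, adjusted p = 0.047). MCM4 had 14.5 and 11.1 CPM in P21, against 22.7, 22.7 and 27.5 CPM in WT (-0.93 ± 0.26, adjusted p = 0.036), and the other 5 MCM genes lay between -0.84 and -0.58 without a call. TSO2 was the single member with a positive value, 0.27.

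Of the mitotic genes, CYCB2;2 had 5.86 and 12.1 CPM in P21, against 20.3, 24.2 and 16.1 CPM in WT (-1.15 ± 0.33, adjusted p = 0.041). CDC20.2 had 19.3 and 20 CPM in P21, against 35.9, 56.8 and 29.7 CPM in WT (-1.04 ± 0.31, adjusted p = 0.045), and KNOLLE 64.8 and 63.2 CPM, against 128, 113.5 and 85.5 CPM (-0.77 ± 0.21, adjusted p = 0.033). In all 3 genes the P21 libraries lay below those of WT. CYCB2;3 (-1.31, adjusted p = 0.0503) and AUR1 (-1.01, adjusted p = 0.0502) were on the other side of the threshold. CYCD3;2, at 94.7 and 109.5 CPM in P21 against 162.5, 161.9 and 188.2 CPM in WT, had an adjusted p = 0.0442 with a log2 fold change of -0.74, inside the fold threshold. CYCD3;1 had 52.4 and 64.5 CPM in P21, against 63.8, 54.3 and 64.4 CPM in WT, and these groups overlapped.

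Of 74 cell cycle genes tested outside the members, 2 were called lower in P21 at 9 DAS and 1 higher. These are 2.7% and 1.35%, where 2.78% and 2.61% of all genes were called, so neither share was above that of all genes. CKS2, a small subunit that binds cyclin-dependent kinases (-1.0), and OSD1, an inhibitor of the APC (-1.78), were called lower. KRP1, an inhibitor of cyclin-dependent kinases, was called higher: it had 32.7 and 32.1 CPM in P21, against 18.4, 13.3 and 13.6 CPM in WT (1.1 ± 0.26, adjusted p = 0.0135). Of 23 other replication factors none was called, though 22 were negative, with a median of -0.40. AN3 had 4.82 and 4.76 CPM in P21, against 28.8, 22.7 and 30.1 CPM in WT (-2.50, adjusted p = 0.00039), and GRF5, a growth factor that works with it, was called lower too, at -2.38. They belong to a list of 7 leaf lamina markers, of which 4 had negative and 3 positive values, with a median of -0.11 and no other call. Stomatal lineage genes summed to 103 to 110 CPM in P21 and 108 to 129 CPM in WT, with 0 of 6 called. The count of 7 is not firm: it was 3 once replicate 2 of WT and of P10 at 9 DAS was taken out, and 1 to 11 when 1 library was left out. It was 1 without P21 replicate 2 at 9 DAS, 2 without P21 replicate 3, 2 without WT replicate 1 and 3 without WT replicate 2. It was 11 without P10 replicate 1 at 9 DAS, and also without WT replicate 3 or P21 replicate 3 at 16 DAS, which enter through the shared estimate of the spread. No mitotic member was called without WT replicate 1, without WT replicate 2, without P21 replicate 2, or with replicate 2 of WT and of P10 taken out. PCNA2 was called in every one of the 26 alternative settings.

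Each line was compared with WT at 16 DAS in the same way. Whether P10 and P21 already differed from each other at 9 DAS was not tested. In P10 2 of 42 members were called lower than in WT, or 4.76%, where 7.69% of all genes were called lower, and none was called higher, so the share of members was below that of all genes. Both belong to the start of S phase. E2FA had 1.64, 1.53 and 1.19 CPM in P10, against 5.42, 4.96 and 5.96 CPM in WT, with no overlap (-1.88 ± 0.45, adjusted p = 0.0048). CDC6A had 0, 3 and 1 reads in P10, or 0, 1.15 and 0.396 CPM, against 12, 9 and 10 reads, or 3.83, 2.23 and 7.45 CPM, in WT (-2.59 ± 0.86, adjusted p = 0.036). E2FA kept its call without any 1 library and lost it with limma on log2(RPKM + 1), at -0.69, inside the fold threshold. CDC6A lost its call without P10 replicate 1 or 3, or without WT replicate 1 or 3, so that the count was 1 to 4 over the libraries left out, the highest without P10 replicate 2.

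The mitotic genes, most of them with few reads in WT at 16 DAS, had a median of -0.13 in P10 and none was called, CYCA2;4 being the lowest at -2.03 (adjusted p = 0.0819). KNOLLE had 10.7, 8.05 and 6.34 CPM in P10, against 6.38, 10.9 and 7.45 CPM in WT, and these overlapped. CYCD3;2 had 32.0, 58.3 and 28.1 CPM in P10, against 61.5, 60.3 and 64.1 CPM in WT (-0.63 ± 0.21, adjusted p = 0.036), inside the fold threshold. The 4 clamp and nucleotide genes gave values between -0.65 and 0.37, and the MCM genes between -0.78 and -0.16, none called.

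Of 74 cell cycle genes tested outside the members, 7 were called lower in P10 at 16 DAS and 2 higher. These are 9.46% and 2.70%, where 7.69% and 8.10% of all genes were called. Among 18 control genes of the cycle 2 were called lower and 1 higher. RBR1, the retinoblastoma protein that holds E2F factors, had 27.9, 24.1 and 30.5 CPM in P10, against 43.7, 43.7 and 59.6 CPM in WT (-0.81 ± 0.19, adjusted p = 0.0049). CYCD2;1 was lower (-1.05), and DPB, a partner of E2F factors, was higher (1.16). Of 23 other replication factors 3 were called lower, namely PSF1 of the GINS complex (-1.33), the chromatin assembly subunit FAS1 (-1.07) and RNR2A (-1.01). Among 15 inhibitors and endocycle genes KRP7 (-1.75) and SMR1 (-1.06) were lower. SMR5, which responds to stress and DNA damage, was higher, with 8.21, 5.75 and 1.59 CPM in P10, against 0.319, 0 and 1.49 CPM in WT (3.54 ± 1.00, adjusted p = 0.016). The summed level of 7 leaf lamina markers was also lower in P10 (27900 to 32700 CPM) than in WT (41500 to 49700 CPM), and its part in these values was not tested.

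In P21 at 16 DAS 0 of 42 members were called against WT, beside 0.127% of all genes called in either direction. At an unadjusted p under 0.05 4 members were higher and 0 lower, where 4.39% and 4.67% of all genes were, and each of the 26 alternative settings called 0. Members of the replication roles had a median of 0.48 and those of the mitotic roles 0.05. In 10 of 42 members every P21 library lay above every WT library, where 13.7% of all genes did so. PCNA2 had 17.6 and 15.7 CPM in P21, against 11.5, 11.4 and 11.2 CPM in WT (0.54 ± 0.26, adjusted p = 0.55). E2FA had 7.02 and 8.61 CPM in P21, against 5.42, 4.96 and 5.96 CPM in WT (0.55 ± 0.36, adjusted p = 0.70).

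P10 set directly against P21 at 16 DAS tests whether the lines differ. In P10 8 of 42 members were called lower, or 19.0%, where 7.32% of all genes were, and none was called higher. Of the 8, 7 belong to the replication roles (of 14) and 1 to the mitotic roles (of 23), with medians of -1.13 and 0.01. E2FA led, with 1.64, 1.53 and 1.19 CPM in P10, against 7.02 and 8.61 CPM in P21 (-2.43 ± 0.45, adjusted p = 0.00087). MCM2 (AT1G44900) had 4.10, 3.45 and 4.75 CPM in P10, against 9.22 and 17.2 CPM in P21 (-1.71 ± 0.38, adjusted p = 0.0036). CDT1A had 0.821, 3.83 and 3.57 CPM in P10, against 9.65 and 7.99 CPM in P21 (-1.49 ± 0.43, adjusted p = 0.017). In all 3 genes the lines did not overlap.

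PCNA1 was called at -1.45 ± 0.37 (adjusted p = 0.0083), PCNA2 at -1.14 ± 0.28 (adjusted p = 0.0064), MCM4 at -1.0 ± 0.32 (adjusted p = 0.033) and MCM7 at -0.89 ± 0.30 (adjusted p = 0.039). CYCA1;1 (AT1G44110), an A-type cyclin of S phase to mitosis, was the mitotic member called, at -1.65 ± 0.54 (adjusted p = 0.037). It had 4, 3 and 1 reads in P10, or 3.28, 1.15 and 0.396 CPM, against 8 and 15 reads, or 3.51 and 4.61 CPM, in P21. It lost its call without P10 replicate 2 or 3 at 16 DAS. The call was also lost with DESeq2's Wald test, limma on log2(RPKM + 1) and only the groups compared. CDC6A had the lowest value of all, -2.49 ± 0.93, and did not pass (adjusted p = 0.065). RNR1 and CYCD3;2 passed the test inside the fold threshold, at -0.69 and -0.67. Of 74 other cell cycle genes tested 5 were called lower and 2 higher, or 6.76% and 2.70%, where 7.32% and 7.59% of all genes were. RBR1 (-1.01), CYCD2;1 (-1.15), FAS1 (-1.30) and CDT1B (-1.63) were called lower among them. So was CCS52A1, an APC activator that promotes endoreduplication (-1.47), and DPB was called higher (1.20). SMR5 had 0 reads in both P21 libraries and 10, 15 and 4 reads in P10. Its mean level in P10 was at least 4.63-fold higher, against a floor of 3 counts a library. At 9 DAS the reads lay the other way, with 3 and 6 in P21, 0, 0 and 1 in P10, and 0 in every WT library. The count of 8 was 2 without P21 replicate 3 and 5 without P10 replicate 3, and E2FA was called in all 26 alternative settings. Leaf lamina markers were lower in P10 here too (27900 to 32700 CPM, against 50600 to 52300 CPM in P21), and their part was not tested.

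**Figure D3:**
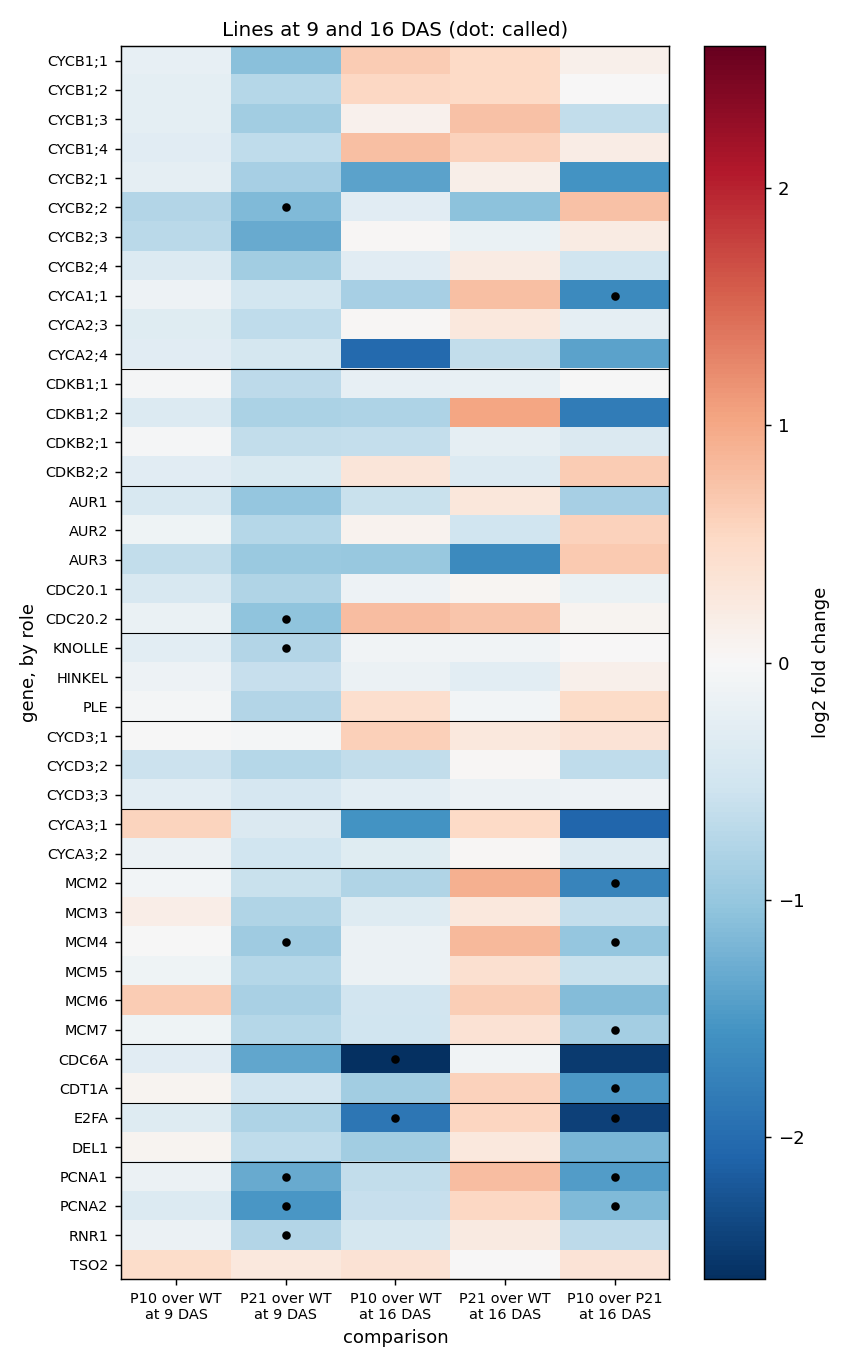
Log2 fold change (colour) of the 42 tested members (rows, by role) in 5 comparisons of lines, with a dot on each call. Calls number 0 for P10 over WT and 7 for P21 over WT at 9 DAS, and 2 for P10 over WT, 0 for P21 over WT and 8 for P10 over P21 at 16 DAS.

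The difference between the genotypes in their change from day to day was itself tested as an interaction. For P21 over WT 3 of 42 members were called, all higher and all of the replication roles, or 7.14%, where 1.7% of all genes were called higher, and 0 were called lower. They were PCNA1 at 2.12 ± 0.44 (adjusted p = 0.0134), PCNA2 at 2.05 ± 0.35 (adjusted p = 0.0036) and MCM4 at 1.77 ± 0.40 (adjusted p = 0.020). In each the P21 level was below WT at 9 DAS and above it at 16 DAS, as the values by library show. At an unadjusted p under 0.05 16 members were higher and 0 lower, where 8.41% and 8.09% of all genes were, and 39 of 42 were positive, with a median of 1.04. The median was 1.21 in the replication roles and 0.93 in the mitotic roles. The comparison uses the P21 and WT libraries of the tests above and adds no new samples. The count was 1 without P21 replicate 3 at either day and 5 without P21 replicate 2 at 16 DAS. PCNA2 was called in each of the 26 settings.

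For P10 over WT 0 of 42 members were called, beside 4.70% of all genes called in either direction. With an unadjusted p under 0.05 3 were lower and 1 higher, where 10.7% and 8.86% of all genes were, and each of the 26 alternative settings called 0. The lowest values were those of CDC6A (-2.29 ± 1.05, adjusted p = 0.23), CYCA3;1 (-2.12 ± 0.94, adjusted p = 0.21) and E2FA (-1.55 ± 0.55, adjusted p = 0.115). So the deeper fall of these genes in P10 was not shown to differ from WT. Of 74 cell cycle genes tested outside the members, 3 were called lower for P10, or 4.05%, where 2.62% of all genes were. For P21 2 were called lower and 1 higher, or 2.7% and 1.35%, where 1.47% and 1.7% of all genes were. SMR1, higher at 16 DAS in every genotype, rose less in the lines than in WT, by -1.09 for P10 and -1.17 for P21. KRP1 gave -1.22 for P10 and -1.40 for P21. SMR1 had 32.8, 36.0 and 42.0 CPM in P10, 58.4 and 47.3 CPM in P21 and 78.8, 78.2 and 76.0 CPM in WT at 16 DAS. RBR1 was called for P10 (-0.97) and RSW7, a mitotic kinesin, for P21 (2.08). The calls of SMR1 for P21 and of RBR1 for P10 were lost in most alternative settings.

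**Figure D4:**
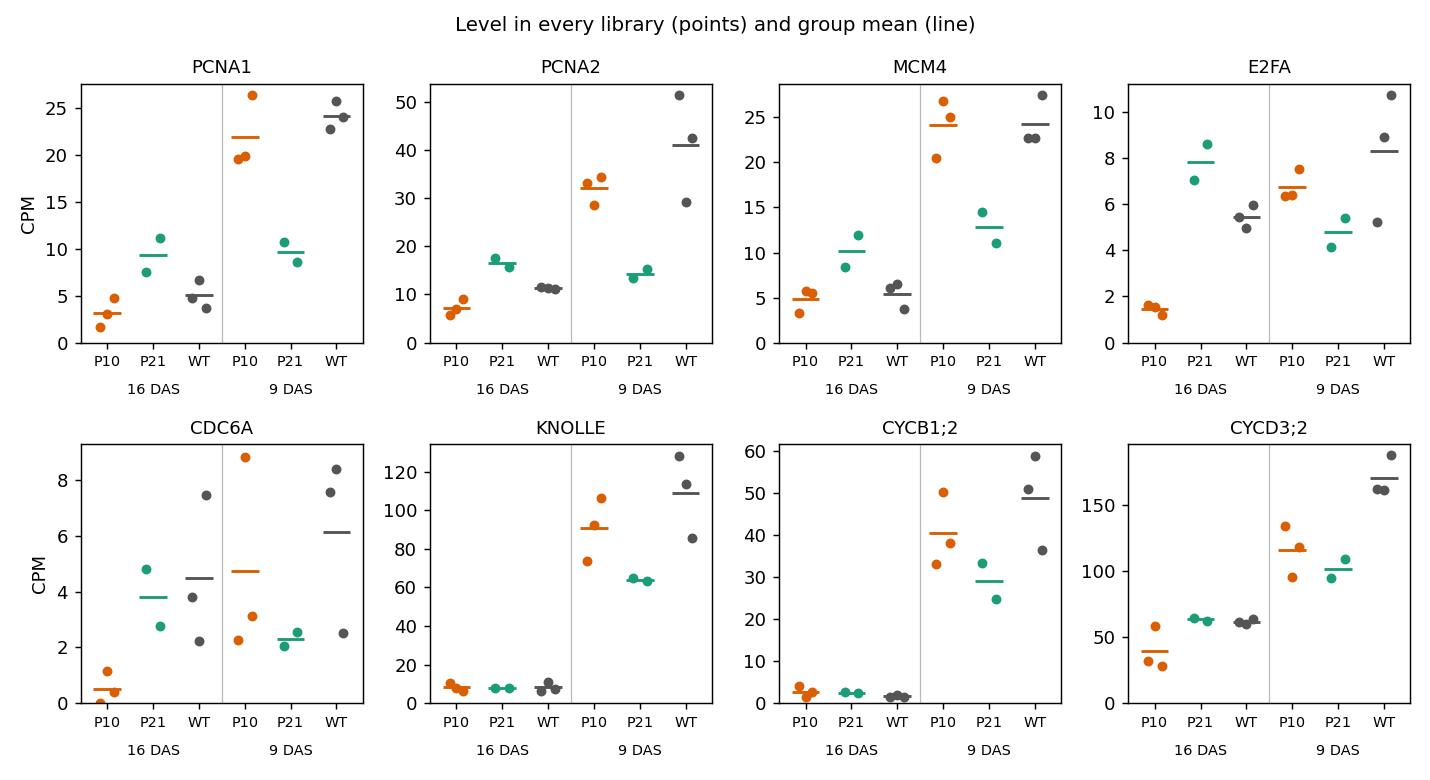
CPM (y axis, from 0) in every library for 8 members, with 16 DAS left of the grey line and 9 DAS right of it, P10, P21 and WT in each, and lines at the group means. PCNA2 is at 17.6 and 15.7 CPM in P21 at 16 DAS, against 13.4 and 15.2 CPM at 9 DAS, while KNOLLE is at 6.34 to 10.9 CPM in the libraries of 16 DAS.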

How the data were processed

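RNA of 18 labelled samples was sequenced from stranded, poly-A selected libraries. The deposited tables hold values for 16 of them, and replicate 1 of P21 at both days was not analysed here. The authors mapped the reads to TAIR10 with CLC Genomics Workbench. The deposited counts used are those of uniquely mapped reads per gene (the total reads served as an alternative), both over the whole gene region with introns, and whether strand was used in counting is not given in the sources used here. RPKM values are those that the authors deposited. Of 462 per-sample columns 412 were not used, including the authors' own comparisons (fold changes, p-values and false discovery rates). The labels name biological replicates.

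Unique gene reads were fitted in R 4.3.3 with edgeR 4.0.16 (TMM factors, filterByExpr, robust quasi-likelihood), with 1 mean for each of 6 groups over all 16 libraries, 10 residual degrees of freedom and 16499 genes. P-values were adjusted over all genes. The thresholds (0.05, and 0.75 on the log2 scale) follow the study. Groups come from the labels. Counting precision is set by 1193042 to 4695692 reads a library. The code was tested on simulated data.

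Alternatives were DESeq2 1.42.0 size factors, upper-quartile factors, DESeq2's Wald test, no filter, total gene reads, limma 3.58.1 on log2(RPKM + 1) with a pseudocount of 1, a fit to the compared groups alone, a replicate block, no fold threshold, the 9 DAS groups of WT and P10 without replicate 2, and each library left out. Samples with the same replicate number were not treated as pairs. Gene names and windows came from RefSeq (TAIR10.1), whose gene of every one of 26710 protein-coding loci overlapped the region of the same locus in the tables, with the same start and end in 19.0%.

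All 43 members may be named. Libraries are printed for the called member with the largest change in a role and a second where needed, the rest by ranges and counts, and of the other lists up to 4 called genes a list and comparison. AN3 and GRF5 of the marker lists were named after their values were seen. Members, lists and tests were chosen with earlier results of these data known.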

Additional observations from a re-analysis of the deposited data

Results flagged for a closer look

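Results are given here when a test found that the lines, or the genotypes in their change between the days, differ. P10 and P21 differed at 16 DAS in E2FA (log2 fold change -2.43), MCM2 (-1.71), CYCA1;1 (-1.65), CDT1A (-1.49), PCNA1 (-1.45), PCNA2 (-1.14), MCM4 (-1.0) and MCM7 (-0.89). Among the other genes they differed in CDT1B (-1.63), CCS52A1 (-1.47), FAS1 (-1.30), CYCD2;1 (-1.15), RBR1 (-1.01) and DPB (1.20), and in SMR5, at least 4.63-fold higher in P10. All are P10 over P21 by edgeR's quasi-likelihood test, with 3 libraries of P10 and 2 of P21. CYCA1;1 rests on few reads and lost its call without P10 replicate 2 or 3 and with DESeq2's Wald test.

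The change between the days differed between P21 and WT in PCNA1 (2.12), PCNA2 (2.05), MCM4 (1.77), RSW7 (2.08), KRP1 (-1.40) and SMR1 (-1.17), and between P10 and WT in KRP1 (-1.22), SMR1 (-1.09) and RBR1 (-0.97). Of these, SMR1 in P21 and RBR1 in P10 each kept the call in 8 of 26 alternative settings, and PCNA2 in 26. For P21 the contrast crosses the library index at 9 DAS, where P21 and WT carry different ones, and its part was not tested.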

How the results depend on the processing

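Under 26 alternatives, 183 of 260 calls of members and other named lists were kept throughout and none changed direction. The day comparisons moved little: leaving out 1 library gave 40 to 41 called members in P10, 21 to 25 in P21 and 37 to 39 in WT. For P21 against WT at 9 DAS (7 called) DESeq2's Wald test gave 4, limma on log2(RPKM + 1) gave 4, the fit without replicate 2 of WT and P10 gave 3, and leaving out 1 library gave 1 to 11. For P10 against WT at 16 DAS (2 called) limma gave 1, which was CYCD3;1, higher, at 0.93. Only the groups compared gave 1, and leaving out 1 library gave 1 to 4. For P10 against P21 at 16 DAS (8 called) DESeq2's Wald test, limma and only the groups compared each gave 5, and leaving out 1 library gave 2 to 9. For the change of P21 over WT (3 called) leaving out 1 library gave 1 to 5.

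With a replicate block the counts were 5 for P21 against WT at 9 DAS, 6 for P10 against P21 at 16 DAS, 2 for the change of P21 over WT, and otherwise those of the fit without it. Samples with the same number were not taken as pairs. Correlations of their deviations were -0.12, 0.47 and -0.09 for P10 and WT at 9 DAS, but 0.20 and 0.33 for P21 and WT at 9 DAS, where only 2 numbers are shared and the block gave 5 calls in place of 7.

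Limma on RPKM moved the median of all genes by 0.19 in P10 against WT and 0.22 in P10 against P21 at 16 DAS, and by -0.29 in WT and -0.35 in P21 between the days, where upper-quartile factors moved it by -0.17 and -0.12. With limma 72.3% and 78.4% of calls over all genes were higher in these P10 comparisons, beside 51.3% and 50.9%. Between the days it was 33.0% in WT and 23.2% in P21, beside 51.8% and 53.5%, and with upper-quartile factors 39.9% and 42.8%. For the change of P10 and of P21 over WT limma gave 74.4% and 40.6% higher, beside 44.2% and 53.6%, and for P21 against WT at 16 DAS DESeq2's Wald test gave 37.2%, beside 52.4%. At 16 DAS depth limits the mitotic genes: the median member had 17 reads in all P10 libraries together, 20 in P21 and 26 in WT, and a value that missed the threshold there does not show that the lines were alike.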
